A study of Danio rerio with 6 samples.

Results

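The zebrafish genes fnbp1b, mmel1, ly75, pou2f2a and btbd11b were examined in sorted GFP-positive cells, mainly of the embryonic heart lining, vessels and blood. They were selected by symbol from the deposited gene table, which held 7 identifiers for these 5 symbols among 19722 in all, because fnbp1b and pou2f2a were each listed under 2 identifiers. The symbols had been picked because of their differences between the lines in the authors' own comparison. The values of that comparison were not used here, so no difference between the lines is reported. Every level below is instead the authors' mean over all 6 libraries of both lines, and such a mean carries no replicate spread. On this scale the 7 identifiers lay far apart, from 120.8 CPM (counts-per-million, reads scaled to the library size) for the endocytic receptor gene ly75 to 0.199 CPM for one of the identifiers of fnbp1b, a gene of membrane bending. These CPM values are geometric means, which lie below arithmetic means where libraries differ. All 5 genes were picked for a difference between the lines, so their ranks among all genes may be lowered by that choice.

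The 6 libraries came from transgenic embryos at the 15-somite stage, 3 from Gt(endocard:egfp) and 3 from Tg(fli1a:egfp). The Gt(endocard:egfp) parents were homozygous and the Tg(fli1a:egfp) parents heterozygous, and both were crossed to wild-type fish. Gt(endocard:egfp) is the line Gt(SAGFF27C); Tg(4xUAS:egfp), in which a gene-trap insertion in map3k22 drives Gal4 and, through it, eGFP in the endocardium. The paper found no map3k22 expression in the endocardial region and proposes that the reporter does not follow true map3k22 expression. It also states that the line likely labels a few myeloid cells during somitogenesis. For this line only cells with strong GFP were used, because heart muscle also glows weakly in it. Tg(fli1a:egfp) carries eGFP under fli1a control in all endothelium, the endocardium included, and in blood cells. Embryos of both lines were kept at 28.5°C, apart from a night at 23°C that slowed their development, and the libraries were made from 2 ng of RNA each by Smart-seq2, a PCR-based full-length cDNA method. The sources used here do not give the number of embryos per library.

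The endocardium is the endothelial layer that lines the heart, and its cells share many genes with vessels. The 5 genes belong to unrelated families. ly75 encodes an endocytic receptor of the mannose receptor family, known in mammals as DEC-205 on dendritic cells and thymic epithelium. mmel1 encodes a neprilysin-like zinc metallopeptidase, a class of membrane or secreted enzymes that cut small peptides. fnbp1b is related to mammalian FBP17, an F-BAR protein that bends membranes and recruits actin regulators during endocytosis. pou2f2a is related to mammalian Oct-2, a POU transcription factor best known from B cells, and btbd11b encodes a protein with BTB and ankyrin repeat domains, whose mouse relative has been studied at synapses of inhibitory neurons.

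Markers that the labels call for were listed for the pooled cells, together with those of other tissues. Present here means listed at any level, and 5 reads in 1 library were enough for the lowest gene listed. Where a marker had several identifiers, only the one with the highest mean was kept. Markers without a matching symbol were sought in a gene name list. All 10 genes of a pan-endothelial list were present, with means between 99.1 CPM for erg and 1194 CPM for fli1a, whose regulatory sequence drives the reporter of Tg(fli1a:egfp). All 9 genes of an endocardial list were present, between 5.20 CPM for notch1b and 751 CPM for fn1a. Of these, notch1b and gata4 (5.87 CPM) lay below the median of all genes, 5.98 CPM. Of a red blood list 9 of 9 genes were present, between 2.59 CPM for hbae5 and 335 CPM for hbbe1.1. The myeloid list had 5 of 7, between 2.52 CPM for mpx and 1446 CPM for cebpa, and lyz and csf1ra were not found under these names. The myocardial list had 6 of 8, between 1.23 CPM for nkx2.5 and 24.3 CPM for tbx20, and vmhc and myh6 were not found under these names. The skeletal muscle list had 6 of 7, between 2.41 CPM for myod1 and 94.9 CPM for actc1b, and acta1b was not found under that name. A gene listed only under another name would be missed, so these absences do not show a lack of expression. All 5 epidermal genes were present and summed to 2139 CPM, of which krt4 made up 1633 CPM. Their lowest was tp63 with 44.8 CPM. The 5 listed myeloid genes summed to more, 2459 CPM, and the 10 pan-endothelial genes to 4448 CPM. The 6 neural genes ran between 2.87 CPM for neurog1 and 89.2 CPM for sox3, and the 4 neural crest genes between 1.20 CPM for crestin and 32.8 CPM for tfap2a. List medians were taken only over the genes found, so those of lists with missing genes leave these out. The medians were 239 CPM for pan-endothelial, 147 for epidermal, 66.8 for red blood, 58.3 for myeloid and 37.7 for endocardial genes. They were 12.8 CPM for neural crest, 11.4 for neural, 7.94 for myocardial and 4.96 for skeletal muscle genes. The part of these other tissues in the levels of the 5 genes was not tested, and a mean over both lines cannot place any of these genes in one of them. In sorted bulk samples, fewer cells of a type and less RNA per cell cannot be told apart either.

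The low means in the table could be turned back into whole reads, which gives the depth that the table itself does not state. If a mean is that of log2 CPM with 0.5 reads added per library, then the reads of a gene, each doubled and increased by 1, multiply over the 6 libraries to an odd whole number. This held for all 6130 genes whose product had at most 12 digits, within 0.05 of an odd number, where chance would give 5% of them. The 400 lowest of these genes were used to solve the products, so for them the outcome was fixed in advance. The lowest gene of the table, fam228a, had a product of 11, hence 5 reads in 1 library and none in the others. The same calculation gave a library size of 33425475 reads as a geometric mean of the libraries, in the scaling the authors used. At that size 1 read is worth 0.0299 CPM.

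ly75 was the member with the highest mean. Its mean of log2 CPM was 6.92, or 120.8 CPM, and 7.60% of all genes had a higher mean. The geometric mean of its reads plus 0.5 was 4039 per library, which requires at least 24231 reads over the 6 libraries. By this geometric mean its relative counting error was the smallest of the members.

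pou2f2a came next under its identifier ENSDARG00000036816, with a mean of log2 CPM of 3.88, or 14.7 CPM, and 36.5% of genes above it. The geometric mean of its reads plus 0.5 was 492 per library. The second identifier with this symbol, ENSDARG00000019658, had a mean of log2 CPM of 1.01, or 2.01 CPM, and a geometric mean of 67.1. The first thus exceeded the second by 2.87 on the log2 scale, a 7.33-fold difference in mean read share that is not corrected for gene length. The gene name list gives POU2F2 for the first and pou2f2b for the second, so the symbol of the second in the table differs from that list. RefSeq holds pou2f2a and pou2f2b as separate genes in the assembly GRCz12tu. There, the nearest protein-coding genes that the table lists by symbol beside pou2f2a are cica and atp1a3a, and those beside pou2f2b are dedd1 and cicb.

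mmel1 and btbd11b lay below the median of all genes, which was 2.58 in log2 CPM or 5.98 CPM. mmel1 (ENSDARG00000105389) had a mean of log2 CPM of 1.74, or 3.34 CPM, with 58.1% of genes above it. The geometric mean of its reads plus 0.5 was 111.6 per library, and the libraries together held at least 667 of its reads. btbd11b (ENSDARG00000063040) had a mean of log2 CPM of 1.23, or 2.35 CPM, with 63.0% of genes above it. For btbd11b the geometric mean of reads plus 0.5 was 78.6 per library and the least total 469 reads. The gene name list gives ABTB3 for this identifier, and RefSeq gives abtb3b as a synonym of btbd11b.

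fnbp1b had the lowest mean of the 5 genes under both of its identifiers. ENSDARG00000096367 had a mean of log2 CPM of -1.86, or 0.276 CPM, and ENSDARG00000101028 one of -2.33, or 0.199 CPM. Of all genes, 90.0% had a higher mean than the first and 93.6% a higher mean than the second. The gene name list gives fnbp1b for the first and FNBP1 for the second, whereas RefSeq holds a single fnbp1b gene, with 45 transcript models. Its nearest protein-coding genes listed by symbol are cdk9 and col5a1. Reads may have been split between the 2 identifiers, so that each value is uncertain as a level of the gene. Each CPM value is also a geometric mean, which lies below the arithmetic mean where reads are uneven, as they were for fnbp1b.

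**Figure D1:**
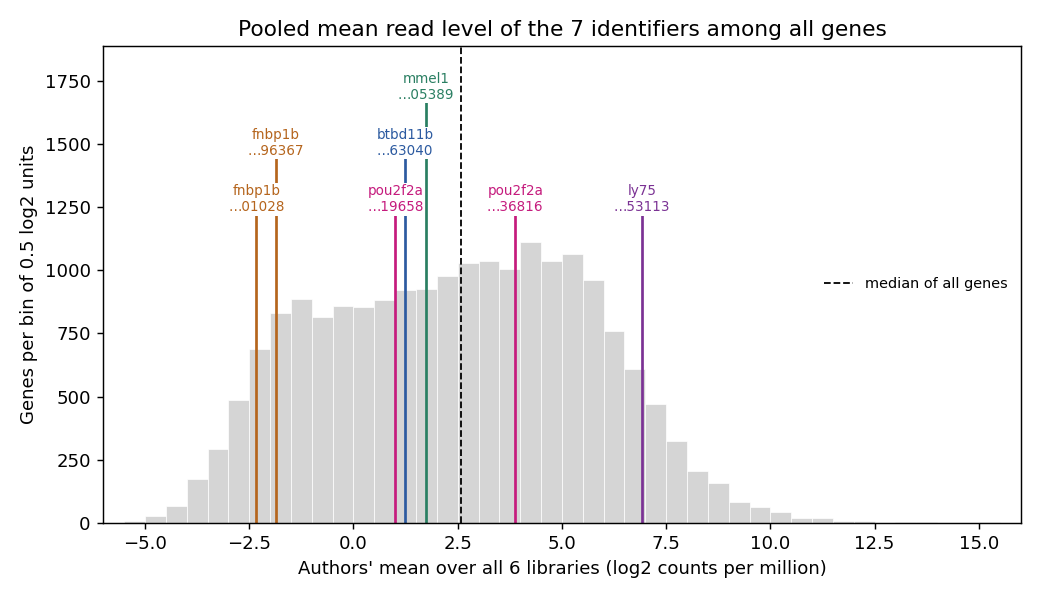
Number of genes (y axis, per bin of 0.5) by the authors' mean over all 6 libraries in log2 counts-per-million (x axis), with a coloured line for each of the 7 identifiers, marked with its last 5 digits, and a dashed line at the median of 2.58. ly75 at 6.92 and pou2f2a (ENSDARG00000036816) at 3.88 lie right of the median, and the other 5 identifiers lie left of it, with both fnbp1b identifiers furthest left at -1.86 and -2.33.

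The reads of fnbp1b were unevenly spread over the libraries, and this could be read from the products without knowing which library was which. The gene had been picked for its difference between the lines in these same libraries. Uneven reads are therefore not a separate result. Whether the unevenness lay between the lines or within a line was not tested. For ENSDARG00000101028 the product was 5506215, which has 6 prime factors, 3, 5, 11, 13, 17 and 151. Either the libraries held 1, 2, 5, 6, 8 and 75 reads in some order, or at least 1 library held none. If none was empty, the library with 75 reads shared its line with 2 libraries of at most 8 reads. In every case 1 library held at least 75 reads while the lowest held at most 1, and the 6 libraries held at least 97 reads together. For ENSDARG00000096367 the product was 39127515, with the prime factors 3, 5, 7, 53, 79 and 89. Either the libraries held 1, 2, 3, 26, 39 and 44 reads in some order, or at least 1 held none. Here the highest library held at least 44 reads, the lowest at most 1, and all 6 together at least 115. Of the 6130 genes whose product was found, 374 (6.10%) must have had at least 1 library without reads, and neither fnbp1b identifier was among these. Which library of which line held the reads was not analysed here. For the other members the products had more than 12 digits, the limit set here, and were not factored.

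fnbp1a and trip10b, genes of the same family at similarly low levels, had limits of the same kind. The mean of fnbp1a in log2 CPM was -2.34, or 0.197 CPM, and its product was 5254925. Either its libraries held 2, 2, 6, 9, 11 and 18 reads, or at least 1 held none. The least that the highest library could hold was 75 reads for fnbp1b ENSDARG00000101028 and 44 for ENSDARG00000096367, against 18 for fnbp1a and 48 for trip10b. The lowest library held at most 1 read of either fnbp1b identifier, at most 2 of fnbp1a and at most 4 of trip10b. The libraries together held at least 48 reads of fnbp1a and 94 of trip10b, whose mean was 0.348 CPM. These are limits and not counts, so the libraries of fnbp1a and trip10b may have been as uneven as those of fnbp1b. Only fnbp1b had been picked for its difference between the lines, while fnbp1a and trip10b were included as relatives, so the limits are not a like comparison.

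The relatives of the members were listed at levels that ran from 0.197 CPM for fnbp1a to 230 CPM for abtb2b. These levels are shares of reads and not per gene length, so they are given side by side without an order. Of the 28 genes in the families, 23 were found under their names. Among the F-BAR relatives of fnbp1b, fnbp1l, known in mammals as Toca-1, had 48.4 CPM, trip10a, related to mammalian Cip4, had 25.7 CPM and trip10b had 0.348 CPM. Among the peptidases related to mmel1, the endothelin-converting enzyme genes ece1 and ece2a had 59.3 CPM and 19.3 CPM. phex, whose human counterpart is known from phosphate balance, had 0.721 CPM and kel 0.834 CPM, while mme, ece2b and ecel1 were not found under these names. The table's ece2a identifier is EEF1AKMT4 in the gene name list, so its value is uncertain.

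In the mannose receptor family, mrc1a had 47.2 CPM, mrc2, known in mammals as a collagen uptake receptor, had 9.25 CPM, pla2r1 had 1.39 CPM and mrc1b had 0.458 CPM. In the assembly GRCz12tu pla2r1 is the protein-coding gene directly next to ly75, with myom2a, a muscle gene listed at 0.638 CPM, on the other side. ly75 stood at 120.8 CPM between neighbours of 1.39 CPM and 0.638 CPM, all as read shares. How often neighbouring genes differ this much was not tested. For mmel1 the nearest neighbours listed by symbol were miip with 15.7 CPM and slc45a1 with 0.225 CPM. For btbd11b they were trabd with 43.2 CPM and mterf2 with 5.81 CPM. The neighbours of fnbp1b, cdk9 and col5a1, had 204 CPM and 17.9 CPM. Those of pou2f2a, cica and atp1a3a, had 1.03 CPM and 4.35 CPM, and those of pou2f2b, dedd1 and cicb, had 23.85 CPM and 13.9 CPM.

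Of the other POU genes of this class, pou2f1b, related to the widely expressed mammalian Oct-1, had 25.7 CPM and pou2f3 had 0.854 CPM. pou2f1a and pou2f2b were not found under these names. The gene name list gives pou2f2b for ENSDARG00000019658, which was counted here as pou2f2a by its symbol. Of the relatives of btbd11b, abtb2b had 230 CPM, abtb1 4.31 CPM, abtb2a 1.52 CPM and btbd11a 1.42 CPM.

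**Figure D2:**
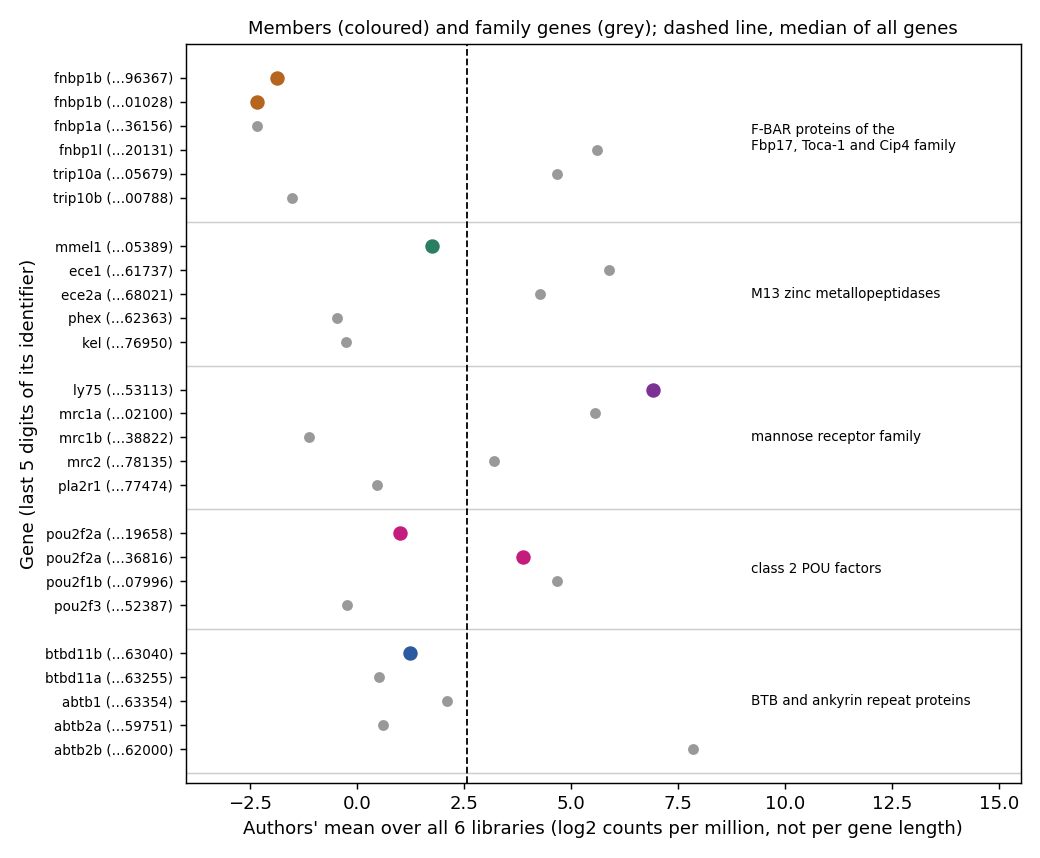
Authors' mean over all 6 libraries in log2 counts-per-million, not per gene length (x axis), for each listed gene of the 5 families (y axis, with the last 5 digits of its identifier). Coloured points are the 7 identifiers of the members, grey points their relatives, and the dashed line is the median of all genes at 2.58; the family genes run from -2.34 for fnbp1a to 7.85 for abtb2b, and each point is 1 mean with no replicate spread.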

How the data were processed

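Reads of 3 Gt(endocard:egfp) and 3 Tg(fli1a:egfp) libraries were mapped to GRCz11 and counted per gene with Rsubread by the authors, who analysed them with limma. The authors deposited 1 table of 19722 genes with a mean in log2 counts-per-million over all libraries, which sums to 956297 on the linear scale, and 7 columns of their own comparison (fold change, its limits, test statistic, p-values and log-odds). Those 7 columns were not used. Linear CPM values are 2 to the power of the deposited mean, a geometric mean. No filter on low values was applied and no test was run. Names came from a gene list that matched 18622 identifiers and, for gene order, from RefSeq on GRCz12tu, which differs from the build of the counts. Neighbours are the nearest protein-coding genes that the table lists by symbol, so its 5630 identifiers without a symbol could not be neighbours.

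Read products were solved from the 400 lowest genes with an offset of 0.5 reads and the smallest product that made all of them whole; the step was tested on simulated data. It uses raw counts per library only as a product, so libraries stay unnamed. Lower limits of total reads follow from the geometric mean, or from the prime factors where the product had at most 12 digits. Members, families and marker lists were chosen with earlier results of these data known. The text names all members and family genes and the highest and lowest gene of each marker list; the read products and neighbours were added after the table was seen. Python 3.11.15, numpy 2.4.6, pandas 2.3.3, sympy and matplotlib 3.10.9 were used.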

Additional observations from a re-analysis of the deposited data

How the results depend on the processing

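Joining identifiers concerns only fnbp1b and pou2f2a, since the other 3 symbols have 1 identifier each. With the linear means of identifiers of one symbol summed, fnbp1b came to 0.474 CPM and pou2f2a to 16.7 CPM; the sum for pou2f2a joins 2 genes if the gene name list is right. These are sums of geometric means, which lie below arithmetic means where reads are uneven, as they were for fnbp1b, so they are not the level of a joined gene. Counting only genes with a symbol lowered the percentage of genes with a lower mean for all 7 identifiers, by at most 8.6 points. Counting only genes of at least 1 CPM lowered it by up to 22.9 points for the 5 identifiers of at least 1 CPM. That fall was fixed in advance, since every gene left out lay below them. Summing identifiers moved the percentage most for ENSDARG00000019658, to 65.3%. With a tolerance of 0.001, chosen after the data were seen, 5886 of the 6130 products were whole. The largest deviation of any of the 6130 from an odd whole number was 0.00392. Levels per kilobase, protein identity and promoter motifs were planned but not run. The reference sources used here held no sequences and no gene lengths on GRCz11. No paired analysis was possible because only a mean over all libraries was used, and for the same reason no library was left out and no count model was fitted. The depth limits fnbp1b most, since its 2 identifiers rest on a geometric mean of 6.64 and 9.21 reads plus 0.5 per library.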
